A study of Mus musculus with 8 samples.

Results

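The genes described here encode proteins that keep the urinary tract clear of bacteria: beta-defensin 1, lipocalin 2, antimicrobial ribonucleases, whey acidic protein inhibitors, cathelicidin, a peptidoglycan recognition protein and the receptors that sense lipopolysaccharide. They were 10 genes chosen by symbol (Defb1, Lcn2, Rnase4, Ang, Slpi, Wfdc2, Camp, Pglyrp1, Cd14 and Tlr4) out of 55291 symbols in the tables. The set was put together after the diet comparison had been seen and Defb1 had been called in it. The differences of its members between the diets are therefore descriptions, and their p-values only show where each gene stood in the fit over all genes. C57BL/6J mice ate a high-salt (3%) or a normal-salt (0.3%) diet for 3 days before their outer medullary collecting ducts were taken, and there were 4 libraries per diet. For each library, between 100 and 120 ducts of 1 mouse were microdissected after liberase digestion of the kidney and pooled. All mice were of this 1 inbred strain, and no genotype, sex, age or infection is given in the labels used here.

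Epithelial cells of the kidney release small cationic peptides and ribonucleases that damage bacterial membranes, and proteins that withhold iron from bacteria. Beta-defensin 1 is made constitutively by tubule epithelium, whereas lipocalin 2 is an inducible protein that binds bacterial siderophores and, in mice, is released by intercalated cells of the collecting duct. Tlr4, with Cd14 as its co-receptor, senses bacterial lipopolysaccharide and activates the transcription factor NF-kappaB.

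Defb1 (mm10 chromosome 8, 21776599 to 21795185, plus strand, GENCODE M21) has 1 annotated transcript of 2 exons. The coding sequence of its transcript is shown because it is the most abundant member and the 1 member called between the diets. It is 210 bases long and holds 7 cysteine codons, 1 in the first exon, which encodes most of the signal peptide, and 6 in the second, which encodes the mature peptide. Capitals mark these 6, whose disulfide bonds hold the fold of a beta-defensin.
Defb1: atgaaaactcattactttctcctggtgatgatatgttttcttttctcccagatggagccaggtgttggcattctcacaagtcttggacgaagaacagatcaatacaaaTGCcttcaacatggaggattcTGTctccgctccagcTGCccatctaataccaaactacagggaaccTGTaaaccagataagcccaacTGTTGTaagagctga

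Levels are given as CPM (estimated counts relative to each library's total) and, where genes are compared with each other, as TPM, which also takes transcript length into account. Recovered totals averaged 76.5 ± 7.93 M estimated counts under high salt and 80.8 ± 12.4 M under normal salt (SD, n = 4 each). A single count was worth 0.0106 to 0.0154 CPM. Libraries are named by diet and by the number in their column name. Principal cell markers such as Aqp2 summed to 24411 to 29608 CPM under high salt and 16788 to 21658 CPM under normal salt, although 4 of the 7 had lower means under high salt. Intercalated cell markers such as Slc4a1 summed to 8043 to 9951 CPM under high salt and 9506 to 10795 CPM under normal salt. Collecting duct cells were therefore present in all 8 libraries, whereas the part of the duct is known from the labels only. Markers of the neighbouring thick ascending limb ranged from 87.5 to 2695 CPM under high salt and from 582 to 2106 CPM under normal salt. Their highest sums were in high-salt library 6 and normal-salt library 1. Normal-salt library 1 was also the highest of its diet in fibroblast and macrophage markers (291 and 67.6 CPM), and its median ratio of TPM to CPM was 0.587, against 0.682 to 0.710 in the other 7 libraries.

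Defb1 was the most abundant of the 10 transcripts in every library. It measured 1391, 1100, 1239 and 983 TPM in high-salt libraries 2, 3, 4 and 6, against 2092, 2086, 2043 and 2269 TPM in normal-salt libraries 1, 2, 3 and 6. Ranked by TPM, it was number 66 to 105 among the genes above 0 under high salt and number 38 to 45 under normal salt. The levels under high salt lay below all 4 under normal salt, with SDs of 176 TPM under high salt and 100 TPM under normal salt.

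Wfdc2, a secreted protein with whey acidic protein domains known from human epithelia as HE4, came second in TPM. It measured 781, 898, 916 and 752 TPM in high-salt libraries 2, 3, 4 and 6, against 714, 615, 725 and 538 TPM in normal-salt libraries 1, 2, 3 and 6. Lcn2 came next, with 77.6, 76.0, 104 and 68.1 TPM in the high-salt libraries and 111, 146, 163 and 131 TPM in the normal-salt libraries. These 3 genes kept the same order in all 8 libraries.

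The other detected members were well below Lcn2 on the TPM scale. Cd14 averaged 9.64 ± 2.83 TPM under high salt and 7.52 ± 0.329 TPM under normal salt (SD, n = 4 each). Tlr4 averaged 6.30 ± 1.34 TPM under high salt and 4.90 ± 1.86 TPM under normal salt, and Rnase4 averaged 5.57 ± 0.587 and 6.47 ± 1.55 TPM. The levels of Cd14, Tlr4 and Rnase4 overlapped within each diet, so their order among themselves is not resolved. Ang had 1.77 ± 0.373 TPM under high salt and 2.70 ± 0.555 TPM under normal salt. Its levels lay below those of Cd14, Tlr4 and Rnase4 under high salt, but overlapped with Tlr4 under normal salt.

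**Figure D1:**
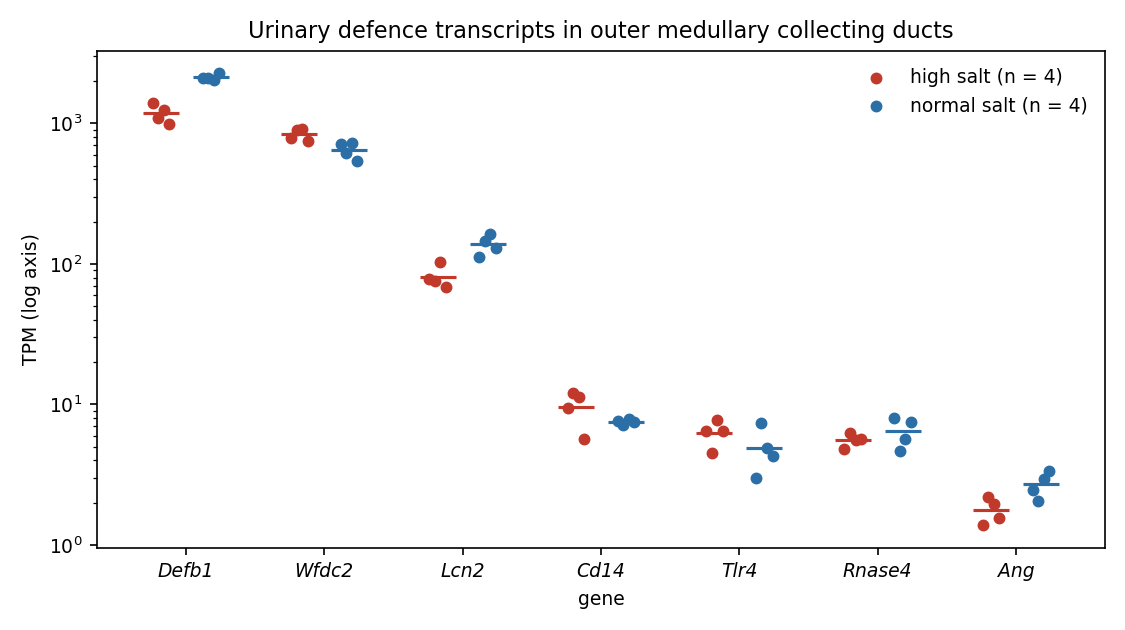
TPM (log axis) of the 7 members detected in all libraries, with 1 point per library, high salt left of normal salt, and a bar at the mean of 4 libraries. Defb1 lies between 983 and 1391 TPM under high salt and between 2043 and 2269 TPM under normal salt, and Slpi, Camp and Pglyrp1 are not drawn because they are at 0 in most libraries.

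The question asked of these libraries was which transcripts of the duct differ between high and normal salt intake. Of the 10 members, 6 passed the filter of at least 1 CPM in at least 4 libraries and were tested with limma on log2(CPM + 1). Of these 6, 1 was called at an adjusted p under 0.05 (Defb1, lower), where 0.0522% of the 13401 genes tested were called as lower, 0.0298% as higher and 0.0821% in either direction. At an unadjusted p under 0.05 there were 3 of the 6 (Defb1 and Lcn2 lower, Wfdc2 higher), where 4.37% of all genes were lower, 5.95% higher and 10.3% either. In 2 of the 6, Defb1 and Lcn2, the high-salt libraries lay wholly below the normal-salt libraries in CPM, as in 2.75% of all genes tested (6.4% in either direction). Nothing is read from these counts, since the set was chosen on this comparison. The fold changes of the 6 members had a median of 0.04, with 3 below 0 and 3 above, against a median of 0.01 over all genes.

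Defb1 had 511, 407, 471 and 370 CPM in high-salt libraries 2, 3, 4 and 6, against 1004, 766, 783 and 827 CPM in normal-salt libraries 1, 2, 3 and 6. These levels rested on 25567 to 44866 estimated counts per library under high salt and 65113 to 73719 under normal salt. The mean under high salt was 52.0% of that under normal salt in CPM and 55.5% in TPM. The log2 fold change was -0.94 (SE 0.13, limma adjusted p = 0.0336), which ranked the gene at number 7 by p. Leaving out normal-salt library 1, whose CPM was the highest, changed the log2 fold change to -0.86 (adjusted p = 0.0217).

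Defb1 kept its call in 2 of the 8 fits that each left out 1 library. Its log2 fold change was -1.02 to -0.86 over these fits. The adjusted p was 0.0541 without high-salt library 2, 0.125 without library 3, 0.089 without library 4 and 0.0738 without library 6, and 0.0862 and 0.0805 without normal-salt libraries 3 and 6. Among the libraries, high-salt library 6, with the highest sum of thick ascending limb markers, had the lowest Defb1 in CPM and TPM, while normal-salt library 1, with the next highest sum, had the highest Defb1 in CPM but not in TPM. With the mean of these markers as a covariate the log2 fold change was -0.998 (adjusted p = 0.0436). In ducts that hold several cell types, fewer cells of a type and less RNA per cell cannot be told apart.

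Lcn2 (chromosome 2, 32384633 to 32388252, minus strand) had 36.6, 36.5, 50.7 and 32.9 CPM in high-salt libraries 2, 3, 4 and 6, against 62.1, 68.3, 77.7 and 59.2 CPM in normal-salt libraries 1, 2, 3 and 6. The diets did not overlap, and high-salt library 4 came nearest to the normal-salt values. The mean under high salt was 58.6% of that under normal salt, with a log2 fold change of -0.77 (SE 0.14), which did not pass limma's test over all genes (adjusted p = 0.0815). The ratio of Defb1 to Lcn2 in TPM was 12.0 to 17.9 in the high-salt libraries and 12.5 to 18.8 in the normal-salt libraries, so it overlapped between the diets.

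Lcn2 is also a protein of neutrophil granules, and macrophages can express it. The 10 neutrophil markers summed to 0.0407 to 1.06 CPM under high salt and 0.247 to 0.422 CPM under normal salt, and Cxcr2, Retnlg and Ngp were at 0 in all 8 libraries. The 11 macrophage markers summed to 20.7 to 33.4 CPM under high salt and 20.98 to 67.6 CPM under normal salt. The sum of 67.6 CPM was in normal-salt library 1, against 21.96, 25.5 and 20.98 CPM in normal-salt libraries 2, 3 and 6. Of the 11, 10 had lower means under high salt, as did 47.2% of all genes tested. With the mean of the 11 macrophage markers as a covariate the log2 fold change of Lcn2 was -0.80 (adjusted p = 0.0526). Intercalated cell markers had lower means under high salt in 6 of 8 members, with a list mean of 9.68 ± 0.0983 on the log2(CPM + 1) scale under high salt and 9.86 ± 0.0313 under normal salt, and their part in the difference of Lcn2 was not tested.

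**Figure D2:**
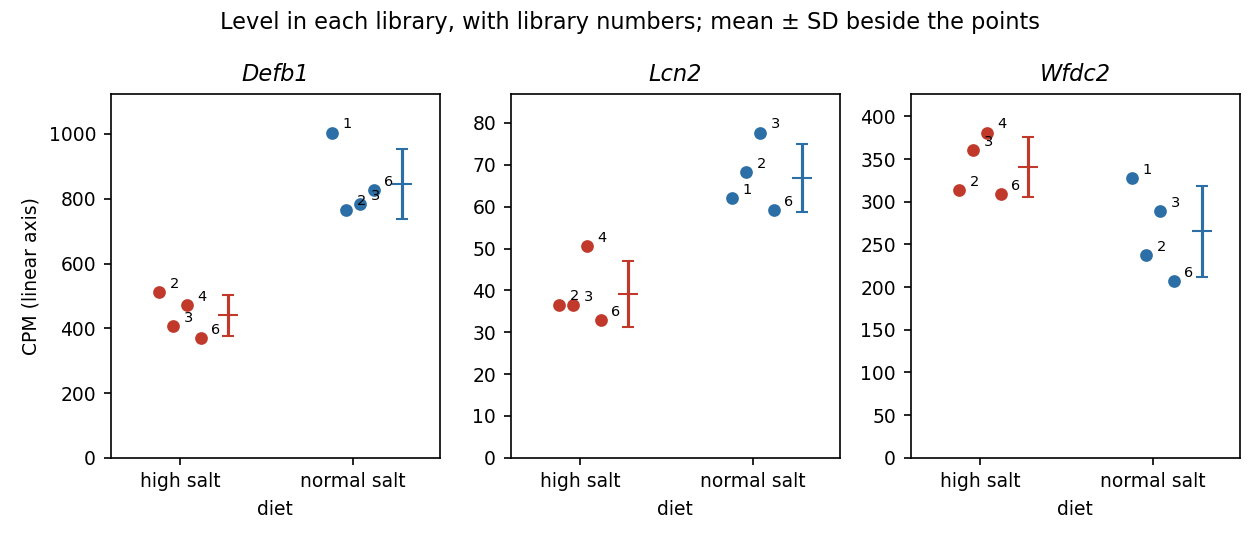
CPM (linear axis from 0) of Defb1, Lcn2 and Wfdc2 in each library, numbered as in the column names, high salt left of normal salt, with the mean ± SD of 4 libraries beside the points. High-salt and normal-salt points do not overlap for Defb1 (at most 511 against at least 766 CPM) or Lcn2 (at most 50.7 against at least 59.2 CPM), and they do for Wfdc2.

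Wfdc2 (chromosome 2, 164562413 to 164568510, plus strand) lies near Slpi (chromosome 2, 164354070 to 164389095, minus strand), another whey acidic protein gene. Wfdc2 had 314, 360, 381 and 309 CPM in high-salt libraries 2, 3, 4 and 6, against 327, 238, 289 and 207 CPM in normal-salt libraries 1, 2, 3 and 6. Its mean was 341 ± 35.4 CPM under high salt and 265 ± 53.5 CPM under normal salt (SD, n = 4 each), a log2 fold change of 0.38 (SE 0.14) that did not pass the test (limma adjusted p = 0.385). In CPM, normal-salt library 1 reached into the high-salt range. In TPM the diets did not overlap, as in 3.8% of the 13623 genes kept on that scale for the higher direction, and the adjusted p was 0.363. Defb1 and Lcn2 did not overlap in TPM either, as in 2.11% of genes for the lower direction.

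The share of Defb1 in this group of transcripts did not overlap between the diets. Defb1 made up 61.2, 52.4, 54.2 and 53.9% of the summed TPM of the 10 members in high-salt libraries 2, 3, 4 and 6, against 71.2, 72.7, 69.2 and 76.7% in normal-salt libraries 1, 2, 3 and 6. The ratio of Defb1 to Wfdc2 in TPM was 1.22 to 1.78 under high salt and 2.82 to 4.22 under normal salt. The summed TPM of the 10 members was 1822 to 2285 under high salt and 2868 to 2960 under normal salt. These sums are set almost wholly by Defb1 and Wfdc2 and add no evidence to their own values.

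Slpi, the secretory leukocyte protease inhibitor, was at 0 in all 8 libraries, and so was Camp, the precursor of the cathelicidin peptide (chromosome 9, 109847379 to 109849617, minus strand). A count of 0 allows up to 3 counts, or 0.0319 to 0.0463 CPM depending on the library, and covers counting error only. Pglyrp1, a peptidoglycan-binding protein of neutrophil granules (chromosome 7, 18871331 to 18890459, plus strand), had 0 counts in all 4 high-salt libraries and in normal-salt libraries 1 and 6, 1 count in normal-salt library 2 and 17 in library 3. No fold is given for these 3 genes. They were not detectable at this depth in most or all libraries.

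Rnase4 and Ang encode secreted ribonucleases, and Ang is the mouse angiogenin. They overlap on chromosome 14, plus strand (Rnase4 51091077 to 51106151, Ang 51091150 to 51102009). Their transcripts share 2 exonic stretches with 219 bases in all (104 and 115 bases), so reads from these stretches could belong to either gene. The RefSeq table of GRCm38.p6 gives the 1 start of Ang and the first of 2 starts of Rnase4 the same window. That window is shown because it is common to both members; it covers the 250 bases before that start, at chr14:51090827-51091076 on the plus strand, and nothing in it is marked.
Rnase4 and Ang: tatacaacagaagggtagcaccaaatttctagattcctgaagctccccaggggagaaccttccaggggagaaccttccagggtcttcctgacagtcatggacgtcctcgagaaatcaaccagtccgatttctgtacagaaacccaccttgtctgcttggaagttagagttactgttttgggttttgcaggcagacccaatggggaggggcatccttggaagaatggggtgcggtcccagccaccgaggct

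Rnase4 had 3.84, 5.07, 4.66 and 4.58 CPM in high-salt libraries 2, 3, 4 and 6, against 7.67, 3.76, 4.65 and 5.95 CPM in normal-salt libraries 1, 2, 3 and 6. The diets overlapped, and the log2 fold change was -0.20 (SE 0.19, limma adjusted p = 0.779). Normal-salt library 1 was the highest. Without that library, which was also the highest of its diet in fibroblast and macrophage markers, the log2 fold change was -0.05. Without normal-salt library 2, the lowest, it was -0.34. With the mean of the macrophage markers as a covariate it was -0.09 (limma adjusted p = 0.890). The part of the fibroblast markers was not tested.

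Ang fell short of the filter and was not tested. It had 0.473, 0.745, 0.691 and 0.535 CPM in high-salt libraries 2, 3, 4 and 6, against 1.00, 0.691, 0.998 and 1.09 CPM in normal-salt libraries 1, 2, 3 and 6, from 37 to 56 estimated counts per library under high salt and 59 to 94 under normal salt. The diets overlapped because normal-salt library 2 lay within the high-salt range. The ratio of Rnase4 to Ang in TPM was 2.83 to 3.66 under high salt and 1.93 to 3.26 under normal salt, and overlapped.

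Cd14 (chromosome 18, 36725067 to 36726798, minus strand) passes lipopolysaccharide to Tlr4. It had 8.25, 10.8, 9.72 and 4.96 CPM in high-salt libraries 2, 3, 4 and 6, against 7.31, 6.12, 6.68 and 6.04 CPM in normal-salt libraries 1, 2, 3 and 6. Of the high-salt libraries, 3 lay above all normal-salt libraries and library 6 lay below them. The log2 fold change was 0.28 (SE 0.20, limma adjusted p = 0.695). Without high-salt library 6, which had the highest thick ascending limb marker sum (2695 CPM), it was 0.48 (adjusted p = 0.281), without high-salt library 3 it was 0.16, and with the mean of those markers as a covariate it was 0.05 (adjusted p = 0.99).

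Tlr4 (chromosome 4, 66827584 to 66930284, plus strand) had 13.999, 9.91, 16.04 and 14.3 CPM in high-salt libraries 2, 3, 4 and 6, against 8.19, 16.1, 10.6 and 9.18 CPM in normal-salt libraries 1, 2, 3 and 6. The diets overlapped through high-salt library 3 and normal-salt library 2, and the log2 fold change was 0.30 (SE 0.21, limma adjusted p = 0.676). It was 0.48 without normal-salt library 2 (adjusted p = 0.337) and 0.19 without normal-salt library 1. Macrophages express both receptors. The sum of the 11 macrophage markers given above was highest in normal-salt library 1 (67.6 CPM). Of the 11, 10 had lower means under high salt, as did 47.2% of all genes tested. The other one, Ptprc, a marker of all leukocytes named here after its values were seen, had 12.5 to 17.3 CPM under high salt and 8.48 to 10.5 CPM under normal salt. With the mean of the 11 markers as a covariate the log2 fold changes of Cd14 and Tlr4 were 0.25 and 0.24 (adjusted p = 0.691 and 0.698).

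**Figure D3:**
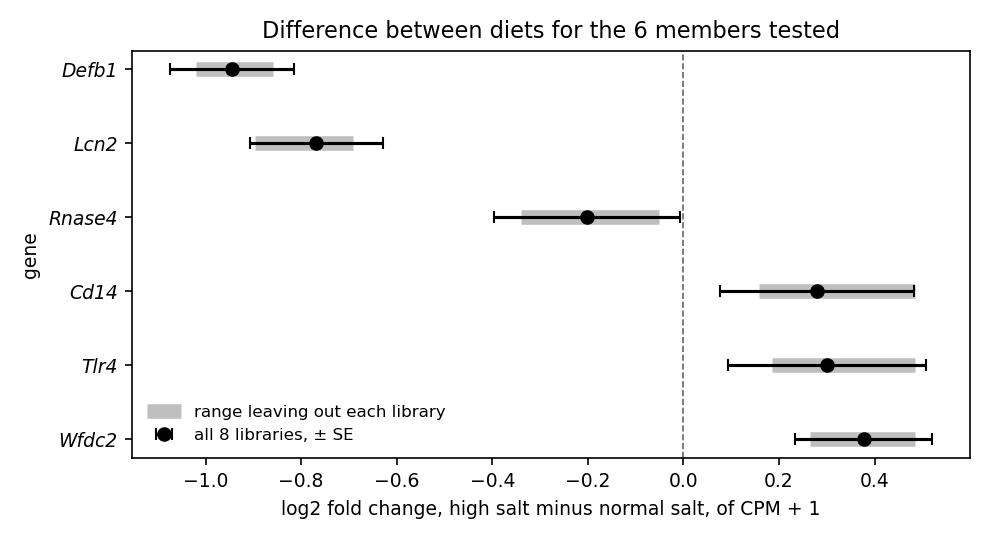
Log2 fold change of CPM + 1, high salt minus normal salt, for the 6 members tested, with points at the limma estimate from all 8 libraries, bars of 1 SE and grey bands for the range over fits that each left out 1 library. No band crosses 0. Defb1 (-0.94) and Lcn2 (-0.77) lie farthest from 0, on its left, and the bands of Rnase4, Cd14, Tlr4 and Wfdc2 come nearer to 0.

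Among the proteins that bind the members, Slc22a17, a receptor for lipocalin 2, had 175 ± 13.8 CPM under high salt and 185 ± 24.4 CPM under normal salt (SD, n = 4 each; limma adjusted p = 0.869). Lrp2, the endocytic receptor megalin, also takes up lipocalin 2 and marks the proximal tubule. It had 0.410 to 12.3 CPM under high salt and 0.0744 to 3.18 CPM under normal salt (log2 fold change 0.72, adjusted p = 0.769). Bdh2, listed for a proposed part in the synthesis of the mammalian siderophore, had 2.20 ± 1.60 and 1.45 ± 1.00 CPM (adjusted p = 0.868). Mmp9, a protease that forms a complex with lipocalin 2, had at most 0.226 CPM in any library.

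Txn1, thioredoxin, which reduces human beta-defensin 1 to its more active form, had 147 ± 8.04 CPM under high salt and 139 ± 35.6 CPM under normal salt (limma adjusted p = 0.853). Ccr6, a chemokine receptor for beta-defensins, was at 0 in all libraries but normal-salt library 6, with 0.0507 CPM. Rnh1, the ribonuclease inhibitor, had 118 ± 3.06 and 112 ± 12.4 CPM (adjusted p = 0.836), and Plxnb2, a receptor for angiogenin, 1252 ± 106 and 1237 ± 212 CPM (adjusted p = 0.963). None of these partners passed the test, and of the whole list of 14, 10 were tested and 0 were called by limma (0 also at an unadjusted p under 0.05), with a median log2 fold change of 0.08.

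For the lipopolysaccharide receptor, Ly96, the subunit that holds the ligand beside Tlr4, had 1.57 ± 0.438 CPM under high salt and 1.73 ± 0.283 CPM under normal salt (limma adjusted p = 0.904). Lbp, which delivers lipopolysaccharide to Cd14, had 0.814 ± 0.438 and 1.34 ± 0.722 CPM (adjusted p = 0.727). Among the partners of Slpi, Anxa2 had 145 ± 9.92 and 127 ± 22.1 CPM (adjusted p = 0.616) and Plscr1 64.4 ± 8.17 and 59.9 ± 4.15 CPM (adjusted p = 0.811), while the neutrophil elastase that it inhibits, Elane, had 0.0456 CPM in high-salt library 2 and 0 in the rest. Trem1, known in humans as a receptor for peptidoglycan recognition protein 1, was at 0 in all 8 libraries.

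Other antimicrobial peptides and proteins were mostly below the filter. Of 41 listed, 18 were at 0 in all 8 libraries, among them, named after their values were seen, the hepcidin genes Hamp and Hamp2 and the beta-defensin genes Defb3 and Defb4, and 5 passed the filter. All 5 had lower means under high salt, as did 47.2% of all genes tested, and all 5 overlapped between the diets. Their median log2 fold change was -0.39 (-0.68 without high-salt library 6 and -0.22 without normal-salt library 1), against 0.01 over all genes. Of the 5, 0 were called by limma and 0 had an unadjusted p under 0.05. Adm, whose peptide adrenomedullin also kills bacteria, had 6.57, 4.62, 7.24 and 10.2 CPM in high-salt libraries 2, 3, 4 and 6, against 11.2, 11.0, 6.49 and 14.9 CPM in normal-salt libraries 1, 2, 3 and 6 (log2 fold change -0.54, adjusted p = 0.501). Umod, the uromodulin of the thick ascending limb, which binds bacteria in urine, had 46.5, 35.7, 248 and 1695 CPM in the high-salt libraries and 1368, 537, 355 and 864 CPM in the normal-salt libraries (log2 fold change -2.07, adjusted p = 0.524), and it is itself 1 of the 6 markers of that segment.

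Defb29, another beta-defensin gene, had 8.96 ± 2.57 CPM under high salt and 10.9 ± 1.43 CPM under normal salt (log2 fold change -0.29, limma adjusted p = 0.667). The other 2 that passed the filter, named after their values were seen, were Wfdc15b, a further whey acidic protein gene, at 53.9 ± 18.8 and 66.6 ± 27.5 CPM (adjusted p = 0.778), and the lysozyme gene Lyz2 at 2.66 ± 1.76 and 4.58 ± 5.06 CPM (adjusted p = 0.835). Lyz2 is also 1 of the 11 macrophage markers, and its highest level, 12.1 CPM, was in normal-salt library 1.

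Most genes of Toll-like receptor and NF-kappaB signalling passed the filter. Those that did not, named after their values were seen, were Tlr5, Tlr6, Tlr7, Tlr8, Tlr9 and Nod2. Of 31 listed, 25 were tested, 11 with lower and 14 with higher means under high salt, and the median log2 fold change was 0.01, the same as over all genes. By limma 0 were called, and 2 were higher at an unadjusted p under 0.05, where 5.95% of all genes were. Irak4, the kinase that Myd88 recruits, had 81.4, 70.5, 79.6 and 51.2 CPM in high-salt libraries 2, 3, 4 and 6, against 41.6, 49.4, 48.6 and 53.2 CPM in normal-salt libraries 1, 2, 3 and 6 (log2 fold change 0.52, SE 0.15, adjusted p = 0.212). Nfkb2 had 62.1 ± 10.8 and 47.3 ± 14.4 CPM (adjusted p = 0.483) and the kinase Irak2 10.9 ± 0.868 and 8.97 ± 1.26 CPM (adjusted p = 0.541). Among the other Toll-like receptors, named after their values were seen, Tlr3, which senses double-stranded RNA, was the highest, at 43.2 ± 3.22 and 39.1 ± 1.92 CPM, while Tlr5, the flagellin receptor, had 0.563 ± 0.252 and 0.340 ± 0.290 CPM and was not tested.

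NF-kappaB and acute-phase targets were low or absent in part: of 27 listed, 10 were tested. Means were higher under high salt in 7 and lower in 3, with a median log2 fold change of 0.14. Limma called 0 of them, and 2 had an unadjusted p under 0.05, both higher, where 5.95% of all genes were. Nfkbia, the inhibitor that NF-kappaB itself induces, had 74.2, 114, 259 and 107 CPM in high-salt libraries 2, 3, 4 and 6, against 72.6, 95.1, 59.6 and 69.2 CPM in normal-salt libraries 1, 2, 3 and 6 (log2 fold change 0.75, SE 0.31, adjusted p = 0.438). Tnfaip3, the feedback enzyme A20, had 27.5, 44.8, 70.4 and 29.2 CPM under high salt and 24.9, 32.5, 24.2 and 21.1 CPM under normal salt (0.64, adjusted p = 0.438). High-salt library 4 was the highest for both genes, and among the high-salt libraries it was also the highest in Lcn2. Among the normal-salt libraries, library 3 was the highest in Lcn2 (77.7 CPM) and the lowest in Nfkbia (59.6 CPM). A link of Lcn2 to these genes was not tested. Cfb, complement factor B, had 4.75 ± 0.710 and 3.59 ± 0.471 CPM (adjusted p = 0.524).

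Receptors for interleukins 17, 22 and 6, which induce antimicrobial proteins in epithelia, were measured with their STAT3 signalling partners. Of 15 listed, 13 were tested, 8 with higher and 5 with lower means, and the median log2 fold change was 0.09, or -0.02 without normal-salt library 1. Limma called 0, and 2 were higher at an unadjusted p under 0.05, a share that was 5.95% over all genes. Traf3ip2, the adaptor of the interleukin 17 receptor, had 17.9 ± 0.292 CPM under high salt and 14.7 ± 1.82 CPM under normal salt (log2 fold change 0.27, adjusted p = 0.439), without overlap between the diets, as in 3.66% of all genes for this direction. The receptor chain Il17ra had 17.1 ± 3.15 and 13.3 ± 1.84 CPM (adjusted p = 0.481), and the transcription factor Cebpd 9.89 ± 2.97 and 13.0 ± 2.60 CPM (adjusted p = 0.588). The interleukin 22 receptor chain Il22ra1, chosen with its values known, was at 0 in all libraries but high-salt library 6 and normal-salt library 6, with 0.145 and 0.254 CPM.

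**Figure D4:**
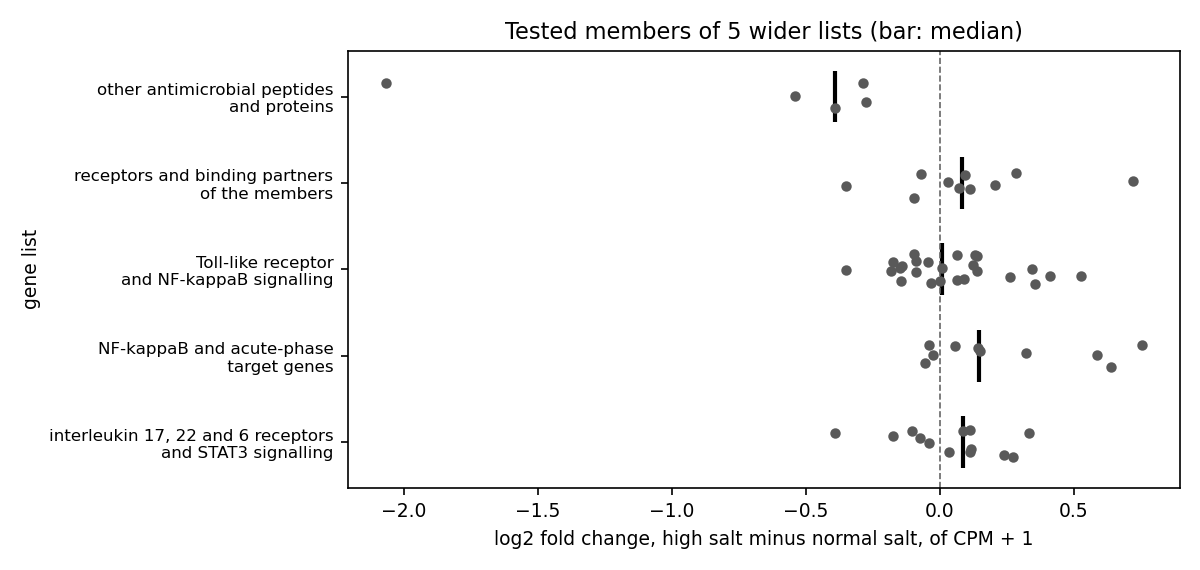
Log2 fold change of CPM + 1, high salt minus normal salt, of each tested gene in 5 lists, with 1 point per gene (spread vertically for legibility) and a bar at the median. The medians run from -0.39 for the 5 other antimicrobial genes, whose lowest point is Umod, to 0.14 for the NF-kappaB and acute-phase targets, and 0 of these genes were called.

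Genes whose pattern over the 8 libraries was most like that of Defb1 or Lcn2 were sought among 10315 named genes with a mean of at least 5 CPM. Likeness was the root mean square difference of log2(CPM + 1) after each gene was centred on its own mean, and it carries no test. For Defb1, whose own root mean square deviation was 0.50, the nearest were Slc52a3, a riboflavin transporter (0.12), Chd9, a chromatin remodeller (0.17), and Smim6, a small membrane protein (0.17). Slc52a3 had 18.5, 14.5, 16.2 and 12.3 CPM in high-salt libraries 2, 3, 4 and 6, against 37.4, 24.1, 24.9 and 24.1 CPM in normal-salt libraries 1, 2, 3 and 6. Slc52a3 was picked for its likeness to Defb1 over these same libraries. Having the highest CPM in normal-salt library 1 and the lowest in high-salt library 6, as Defb1 did, adds nothing to that. For Lcn2, with a deviation of 0.43, the nearest were Cpsf4l (0.23), Gfra4, a receptor of the GDNF family (0.23), and Smim6 (0.23), so no gene came as near to Lcn2 as Slc52a3 did to Defb1.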

How the data were processed

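RNA of 8 libraries, 4 per diet, was sequenced after stranded mRNA library preparation, per the labels' protocols. FastQC and Trimmomatic and the build mm10 come from the submitters' processing notes, and what aligned and counted the reads was not given in the sources used here, nor was the strand setting. For 55291 symbols the authors deposited log2 values of CPM with a common floor of -5.29. The TPM values were deposited with 3 decimals. The design assumed linear CPM, so 2 was raised to each value, the value of the floor taken off and every library brought to the same total. CPM steps gave estimated counts, of which 85.2% to 86.1% were whole within 0.005 counts, totalling 64.8 to 94.1 M per library, so no count model was used as the main test. The precision of low genes is limited by these totals.

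Genes with at least 1 CPM in at least 4 libraries (13401) were compared on log2(CPM + 1), high salt minus normal salt, with limma 3.58.1 in R 4.3.3 (lmFit, eBayes with a mean-variance trend, two-sided, Benjamini-Hochberg adjustment, called at an adjusted p under 0.05). This scale understates changes of low genes. Each library stands for 1 mouse. The test was tested on simulated data, in 5 runs with 200 genes changed in each. It called 43.1% of tested genes changed 1.5-fold, 72% at 2-fold and 91.5% at 4-fold, and 5.36% of its calls were false. A gene that was not called can therefore still differ. Columns could be tied to a diet but not to a single sample title. No library was a copy of another (highest correlation across genes 0.997). Gene positions are from GENCODE M21, and 7 of the 10 members were matched in the RefSeq start-site table of GRCm38.p6.

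Members and lists were chosen with earlier results of these data known. Named genes were all members, the binding partners, the 3 smallest p-values of each other list, and the 3 genes most alike to Defb1 and to Lcn2. Alternatives covered pseudocount, filter, scaling, unit, moderation, weights, voom, covariates, a block by library number and each library left out.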

Additional observations from a re-analysis of the deposited data

Results flagged for a closer look

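A library was picked out when its gap to the nearest of its group of 4 exceeded Dixon's critical share of the group's range. For normally distributed values, chance alone does this in about 1 of 20 groups. Of 73 groups checked over 41 genes, 9 were picked out. Pglyrp1 stood at 0.181 CPM in normal-salt library 3, against 0 to 0.0117 CPM in the other 3 normal-salt libraries. Umod stood at 1695 CPM in high-salt library 6, against 35.7 to 248 CPM in the other high-salt libraries. Slc52a3 stood at 37.4 CPM in normal-salt library 1, against 24.1 to 24.9 CPM. Plxnb2 stood at 923 CPM in normal-salt library 1, against 1309 to 1383 CPM. Gfra4 stood at 14.6 CPM in normal-salt library 6, against 18.0 to 18.4 CPM. Rnh1 stood at 113 CPM in high-salt library 2, against 119 to 120 CPM.

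The other 3 were genes near 0, as was Pglyrp1. A group with a value above 0 in only 1 library is always picked out. The rate of 1 in 20 therefore does not hold for such genes. Ccr6 had 0.0507 CPM in normal-salt library 6, Elane had 0.0456 CPM in high-salt library 2, and Mmp9 had 0.226 CPM in high-salt library 3, with 0 to 0.0342 CPM in the rest of their groups.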

How the results depend on the processing

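The log2 fold changes of Defb1 and Lcn2 stayed below 0, and those of Wfdc2, Cd14 and Tlr4 above 0, in all 22 alternatives each, and Rnase4 stayed below 0 in all 21 that kept it. Defb1 had log2 fold changes of -1.02 to -0.86 with each library left out and lost its call without a filter on low values (-0.94, adjusted p = 0.228) and without a mean-variance trend (-0.94, adjusted p = 0.0511). Lcn2 was called with array weights (-0.79, adjusted p = 0.0368), and its adjusted p ran from 0.0214 to 0.326 over the alternatives. The number of genes called was 11, with 0 to 49 when a library was left out (5, 1 and 0 without high-salt libraries 2, 3 and 4, and 49, 0 and 1 without normal-salt libraries 1, 3 and 6), 0 without a filter (1933 at an unadjusted p under 0.05), 5 on TPM, 22 with robust moderation, 129 with array weights, 31 with the thick ascending limb covariate and 58 with the macrophage covariate. Of the wider lists, 1 gene was called with the thick ascending limb covariate, Lrp2 (log2 fold change 1.91, adjusted p = 0.0224), and 0 were called in the other alternatives, voom included. The Toll-like receptor list had a median of 0.095 on TPM and of -0.025 to 0.088 with a library left out. The NF-kappaB target list had medians of 0.12 to 0.34 with a library left out, the highest without normal-salt library 6. Over all alternatives the medians ran from -0.68 to -0.078 for the other antimicrobial genes (-0.078 without a filter), from 0.03 to 0.12 for the partners, from -0.026 to 0.095 for the Toll-like receptor list, from 0.03 to 0.34 for the NF-kappaB targets and from -0.019 to 0.089 for the interleukin list. Ang had a difference of -0.41 on TPM. The cause was not tested.

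Library numbers 2, 3 and 6 occur in both diets, and deviations from the diet means had correlations of 0.208, 0.287 and 0.00 for these pairs. Pairs with different numbers had -0.275 to 0.296. The same-number pair was the highest for high-salt libraries 2 and 3, but not for library 6. These values do not settle whether libraries of the same number belong together. The labels give no batch, and the main fit used no pairing. With a replicate block by that number limma called 38 genes, 10 of the 11 among them, and Lcn2 (-0.93, adjusted p = 0.0214). Number 1 occurs only under normal salt and number 4 only under high salt. In the blocked fit these libraries added nothing to the diet difference, which rested on numbers 2, 3 and 6. Of the high-salt libraries, library 4 had the highest Lcn2 (50.7 CPM). Slpi and Camp cannot be resolved below 3 counts per library.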
